A study of Mus musculus with 2 samples.

Results

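The genes described here are 40 genes that mature oligodendrocytes use to build and keep myelin. They were taken as a list of gene symbols, chosen with earlier results of these data known. The symbols were matched to the probe sets of an exon-level microarray that carry a single gene symbol. All 40 had such probe sets, out of 22296 symbols in all, with Myrf matched through its older symbol Gm98. Of the 40, 39 were evaluated, and Gjb1 was not, because 2 of its 3 probe sets passed the floor described below.

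The study hybridised RNA of hypothalamic neurons that express agouti-related peptide (AgRP neurons), collected by fluorescence-activated sorting, from FoxO1 knockout mice (KO, 1 array) and from mice with a heterozygous FoxO1 knockout (HET, 1 array). Both arrays therefore come from animals that carry a FoxO1 knockout allele, and no wild-type array was analysed here. Per the labels the mice were of mixed genetic background, fed ad libitum, and compared as littermates matched for age and sex. For age, Cre driver, number of mice and pooling, nothing is given in the sources used here. With 1 array per genotype there is no replicate, no test and no p-value, and every value below describes these 2 arrays. The deposited values are on the log2 scale after robust multi-array average normalisation, and a difference is KO minus HET, so that -1 is 2-fold lower on the KO array.

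Oligodendrocytes wrap axons in layers of membrane that are rich in galactolipids and cholesterol. Compact myelin is held together by small membrane and basic proteins, cytoplasmic channels are kept open by other proteins, and the paranode anchors the myelin edge to the axon. The transcription factor Myrf, with Sox10, drives the late step in which a precursor turns into a myelinating cell. AgRP neurons are not known for making myelin, and the source of this RNA in the sort was not tested. In bulk RNA, fewer cells of a type and less RNA per cell cannot be told apart.

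A gene's difference is the median over its probe sets whose mean on both arrays reached a floor of 5.86, the median over all probe sets, and a gene needed at least 3 of them. Its level on an array is the median of the same probe sets there. Because each median is taken on its own, the gap between both levels can differ from the difference. A gene was counted as at least 2-fold lower or higher where its difference reached 1 in size with 75% or more of its probe sets on that side of 0. The SD given with a difference is taken across probe sets of 1 pair of arrays, not across mice.

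Among the sorted-cell markers, Agrp had a level of 12.44 on the KO array against 11.97 on the HET array. Its difference was 0.27, with 6 of 7 probe sets higher. Npy measured 12.19 in KO and 12.31 in HET cells, although its difference was 0.14 with 4 of 6 probe sets higher, so its direction is unsettled. Foxo1, the targeted gene, measured 7.46 in KO and 7.98 in HET cells, a difference of -0.48 with 8 of 8 probe sets lower; whether any of these reads the deleted exons cannot be told here. The median difference over all 16639 evaluated genes was -0.11, and 65.2% of them were below 0.

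Of the 39 evaluated oligodendrocyte and myelin genes, 37 were below 0, 11 were at least 2-fold lower on the KO array and 0 were at least 2-fold higher. Over all evaluated genes the shares past the same rule were 1.12% lower (186 genes) and 1.13% higher (188 genes). The list was chosen with earlier results of these data known, so setting it beside these shares is a description and no test. Centred on the median over genes, that split became 127 lower and 270 higher, and with the trend on level removed 135 lower and 261 higher. After either step 34 of the 39 genes were below 0, and Plekhb1, Klk6 and Hapln2 joined Qdpr and Evi2a above it. The 11 genes were Gje1, Ugt8a, Mag, Cnp, Prkcq, Pllp, Trf, Mobp, Fa2h, Mbp and Mal, and they hold structural myelin proteins, enzymes of myelin lipid synthesis, a connexin symbol, an iron carrier and a kinase. The median difference over the 39 was -0.52. Their median level was 7.38 on the KO array and 8.25 on the HET array, each taken on its own and from different genes. Qdpr and Evi2a were the 2 genes above 0.

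The floor acts on the mean of both arrays, so a gene with few bright probe sets can pass through its brighter array. At a 1.5-fold rule 17 of the 39 were lower and 0 higher, against 4.9% and 3.28% of all evaluated genes. With every probe set used, 10 of the 40 genes were at least 2-fold lower and 0 higher, against 0.624% and 0.763% of 20188 genes, and the median over the 40 was -0.44. Counted by probe set, also without the floor, 430 of the 554 probe sets of these genes were below 0 (77.6%), 175 were at least 2-fold lower (31.6%) and 16 at least 2-fold higher (2.89%). Among all 318760 probe sets with 1 symbol, 56.2% were below 0, 9.80% were at least 2-fold lower and 8.52% at least 2-fold higher. At least 4-fold lower were 80 probe sets of these genes (14.4%), against 2.25% of all. Probe sets of 1 gene share a transcript and are not replicates.

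**Figure D1:**
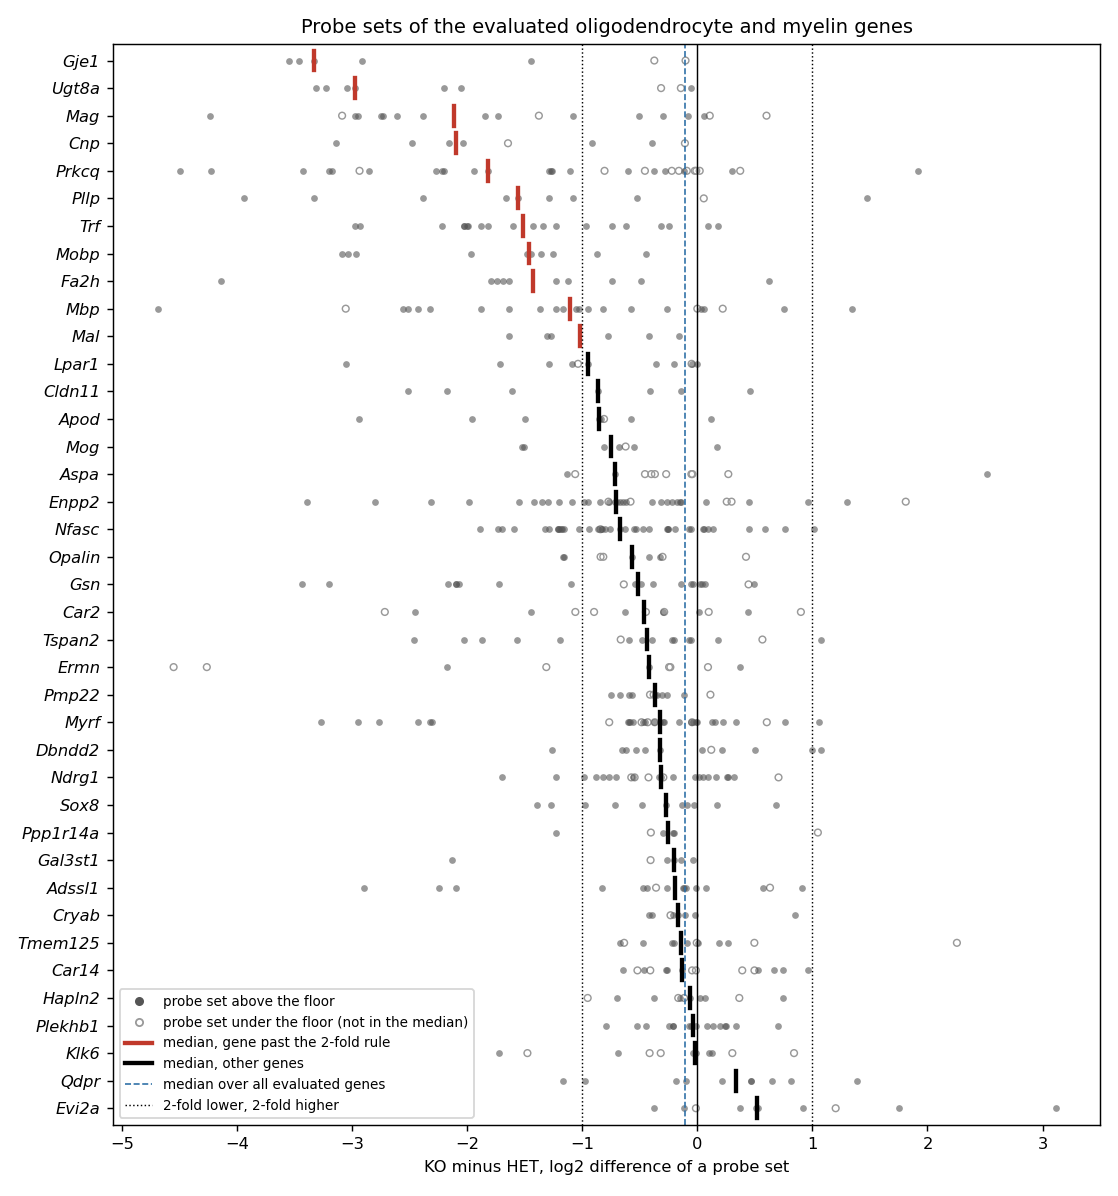
Difference of every probe set (points, KO minus HET, log2) for the 39 evaluated genes, one gene per row in order of its median (vertical bar). Filled points enter the median, open points lie under the floor, and the 11 genes past the 2-fold rule (red bars) run from Gje1 at -3.33 to Mal at -1.02.

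The 10 myelin membrane proteins were all below 0, with a median of -0.94, and 5 of them passed the 2-fold rule. Mag, the myelin-associated glycoprotein of the membrane that faces the axon, reached 7.38 on the KO array, compared with 9.04 on the HET array, a difference of -2.12 (SD 1.31), with 13 of 14 probe sets lower. The lowest Mag probe set was at 5.00 on the KO array against 9.24 on the HET array, while 4 others above the floor lay between -0.50 and 0.06. Mag thus had 10 probe sets at least 2-fold lower beside 4 that differed little.

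Pllp, plasmolipin, which gathers in myelin lipid rafts, had a level of 7.48 on the KO array against 8.87 on the HET array, a difference of -1.56 (SD 1.58). Its probe sets ran from -3.94 (5.99 on the KO array, 9.93 on the HET array) to 1.47 (10.34 on the KO array, 8.87 on the HET array), with 8 of 9 lower. Mal, another small raft protein of the same tetraspan kind, measured 7.78 in KO and 8.86 in HET cells, a difference of -1.02 (SD 0.57), with 6 of 6 probe sets lower, and lay just inside the rule.

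Mobp, an abundant basic protein of compact myelin, reached 6.97 on the KO array, compared with 9.10 on the HET array. Its difference was -1.46 (SD 0.94), and all 10 probe sets were lower, from -3.09 to -0.45. Mbp, the basic protein that closes the cytoplasmic faces of compact myelin, had a level of 8.68 on the KO array against 9.52 on the HET array, a difference of -1.11 (SD 1.34). Of the 10 membrane protein genes, Mbp had the widest range of probe sets. The lowest was at 3.72 in KO and 8.41 in HET cells (-4.69), and the highest was at 8.71 on the KO array against 7.36 on the HET array (1.34), with 16 of 20 lower. The brightest Mbp probe set measured 10.12 in KO and 12.45 in HET cells. Mbp lies in one locus with transcripts that neurons and immune cells also make, and which transcript each probe set reads is not known here.

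Cldn11, the claudin of the tight junctions between myelin layers, reached 7.72 on the KO array, compared with 8.59 on the HET array, a difference of -0.86 with 6 of 7 probe sets lower, under the 2-fold rule. Mog, a surface glycoprotein of the outermost myelin layer, had a level of 7.30 on the KO array against 8.19 on the HET array, a difference of -0.75. The probe sets at 7.47 and 8.87 on the KO array, against 8.99 and 10.37 on the HET array, had its lowest differences, both past 2-fold. Opalin, a membrane protein of mature oligodendrocytes, measured 6.63 in KO and 7.16 in HET cells, a difference of -0.56, with 5 of 5 probe sets lower.

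Tspan2, a tetraspanin of differentiating oligodendrocytes, and Pmp22, best known from peripheral myelin, had differences of -0.44 and -0.36. The Pmp22 probe sets kept close together, with 9 of 9 lower between -0.75 and -0.12 (SD 0.21). Those of Tspan2 ran from -2.46 to 1.08, with 5 of 14 at least 2-fold lower.

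Of the 8 cytoskeletal and cytoplasmic genes all were below 0, with a median of -0.32, and 1 passed the rule. Cnp, the cyclic nucleotide phosphodiesterase that keeps cytoplasmic channels of myelin open, reached 6.66 on the KO array, compared with 9.46 on the HET array, a difference of -2.10 (SD 1.02) with 6 of 6 probe sets lower. Its brightest probe set was at 9.30 in KO and 11.47 in HET cells.

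Gsn, gelsolin, which severs actin filaments, had a level of 7.18 on the KO array against 8.51 on the HET array. Its difference was -0.52 (SD 1.21), while its probe sets ran from -3.44 to 0.49, with 8 of 18 at least 2-fold lower. Gsn is made by several other cell types too. Ermn, ermin, an actin-binding protein of mature oligodendrocytes, rested on 3 probe sets, at 6.16 on the KO array against 6.41 on the HET array, with a difference of -0.42. Its 2 lowest probe sets were left out by the floor. They stood at 3.08 and 3.40 on the KO array, against 7.63 and 7.66 on the HET array, differences of -4.55 and -4.26.

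The other 5 of these genes differed less. Ndrg1, a stress-responsive gene of myelinating cells, was at -0.31 with 12 of 19 probe sets lower, and Ppp1r14a, an inhibitor of myosin phosphatase, was at -0.25 with 4 of 4 lower. Cryab, a small heat shock protein, was at -0.17, Dbndd2, a dysbindin-domain protein, at -0.32 and Plekhb1, a pleckstrin homology protein, at -0.03. Dbndd2 had a higher level on the KO array than on the HET array (8.18 and 7.96) although its median difference was below 0, with 6 of 11 probe sets lower, so its direction is unsettled.

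The 5 enzymes of lipid and acetyl supply were below 0 with a median of -0.72, and 2 passed the rule. Ugt8a makes galactosylceramide, the main galactolipid of myelin. It measured 6.66 in KO and 9.26 in HET cells, a difference of -2.98 (SD 1.15), or 7.87-fold lower. Of its 7 probe sets 6 were at least 4-fold lower, from -3.32 to -2.05, and the remaining one was at 8.28 in KO and 8.33 in HET cells.

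Fa2h, which hydroxylates the fatty acids of these galactolipids, reached 7.69 on the KO array, compared with 8.47 on the HET array, a difference of -1.43 (SD 1.22) with 9 of 10 probe sets lower. Gal3st1, the next enzyme of the pathway, which adds sulphate to make sulfatide, was at 7.08 on the KO array against 7.38 on the HET array, a difference of -0.20. All 5 of its probe sets were lower, and the lowest was at -2.13 (5.25 on the KO array, 7.38 on the HET array). Of the 3 galactolipid enzymes 2 thus passed the rule, and Gal3st1 lay close to the median over all genes, of which most were below 0.

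Aspa, which frees acetate from N-acetylaspartate for lipid synthesis, had a level of 5.89 on the KO array against 6.32 on the HET array, a difference of -0.72 over 3 probe sets that ran from -1.13 to 2.52. With every Aspa probe set used the difference was -0.37, and with the mean over probe sets it was 0.22, so its direction is unsettled. Enpp2, autotaxin, which makes lysophosphatidic acid, measured 8.48 in KO and 8.89 in HET cells, a difference of -0.71 (SD 0.99) with 26 of 30 probe sets lower. Lpar1, a receptor for lysophosphatidic acid, lay just outside the 2-fold rule at -0.95 (SD 0.98), with 7.33 on the KO array, 8.31 on the HET array and 9 of 9 probe sets lower. With the floor raised to the 75th percentile the Lpar1 difference was -0.28.

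**Figure D2:**
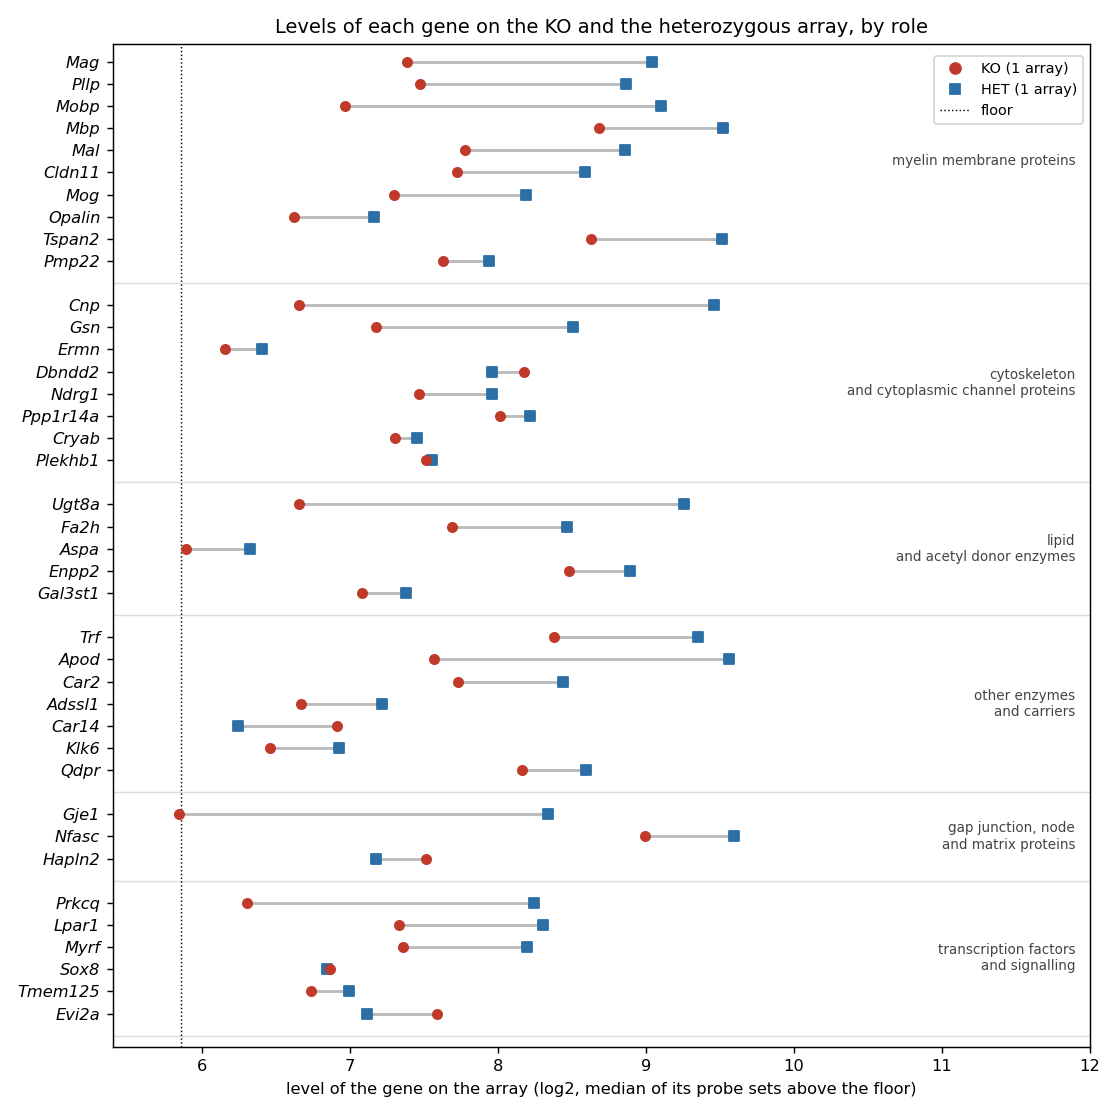
Level of each of the 39 evaluated genes (log2, median of its probe sets above the floor) on the KO array (red circles) and the HET array (blue squares), grouped by role. The KO circle lies left of the HET square for most genes, with Dbndd2, Car14, Hapln2, Sox8 and Evi2a the other way round; levels of different genes are not comparable because their probes differ.

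Of the 7 other enzymes and carriers 6 were below 0, with a median of -0.19, and 1 passed the rule. Trf, transferrin, which oligodendrocytes make and secrete as an iron carrier, reached 8.38 on the KO array, compared with 9.36 on the HET array, a difference of -1.52 (SD 0.92). Of its 20 probe sets 18 were lower and 13 at least 2-fold lower. Apod, a lipid-binding apolipoprotein, had a level of 7.57 on the KO array against 9.56 on the HET array, with a difference of -0.86. Its lowest probe sets were at -2.94 and -1.96, and 3 of 7 were at least 2-fold lower.

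The carbonic anhydrases Car2, the cytosolic form of oligodendrocytes, and Car14, a membrane-bound form, had differences of -0.46 and -0.13; the Car14 level, at 6.91 on the KO array against 6.24 on the HET array, ran the other way. Adssl1, an enzyme of purine nucleotide synthesis, was at -0.19 with 11 of 14 probe sets lower, 3 of them at least 4-fold. Klk6, a secreted protease of oligodendrocytes, was at -0.02. Qdpr, which regenerates tetrahydrobiopterin, was 1 of the 2 genes above 0, at 0.34 (SD 0.79) with 6 of 10 probe sets higher, although its level was 8.17 on the KO array and 8.59 on the HET array. The direction of Qdpr is thus unsettled.

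Among the gap junction, node and matrix genes, the lowest difference belonged to the symbol Gje1, at 5.85 in KO and 8.34 in HET cells, or -3.33 (SD 0.87) with 5 of 5 probe sets lower. Its KO level lay under the floor of 5.86, so the size is uncertain, and it was -2.92 over all 7 probe sets. RefSeq gives Gje1 both as the current symbol of one connexin gene and as an older symbol of Gjc3, the oligodendrocyte connexin gene. The annotation holds a separate set of 6 probe sets under D230044M03Rik, an older name of the current Gje1. Those were dim, with medians of 3.61 on the KO array and 3.80 on the HET array, a median difference of -0.22 and 4 of 6 lower; this second set was looked up after the Gje1 value was seen. Which gene the probe sets named Gje1 read is not settled here.

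Gjb1, the connexin of myelin channels between layers, was not evaluated. Its 3 probe sets stood at 6.10, 4.28 and 6.54 on the KO array, against 6.65, 3.98 and 6.07 on the HET array. Hapln2, a link protein of the matrix at nodes, was at -0.06 with 4 of 7 probe sets lower.

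Nfasc encodes neurofascin, with a glial form at the paranode and a neuronal form at the node and the axon initial segment. It measured 8.99 in KO and 9.59 in HET cells, a difference of -0.67 (SD 0.70) over 39 probe sets, of which 31 were lower. Of these 13 were at least 2-fold lower, down to -1.89 (7.90 on the KO array, 9.78 on the HET array), and the brightest differed little, at 12.10 on the KO array against 12.01 on the HET array. Which probe sets read the glial form is not known here.

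The 6 transcription factors and signalling genes had a median of -0.30, with 5 below 0. Prkcq, protein kinase C theta, best known from T cells, reached 6.30 on the KO array, compared with 8.25 on the HET array, a difference of -1.82 (SD 1.57) with 19 of 21 probe sets lower. Its lowest probe set was at 4.08 in KO and 8.57 in HET cells, and 1 probe set went the other way at 7.07 on the KO array against 5.16 on the HET array. Over all 31 probe sets the difference was -1.11, so its size depends on the floor.

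Myrf, the transcription factor that switches on myelin genes, had a level of 7.36 on the KO array against 8.20 on the HET array, a difference of -0.33 (SD 1.17) over 27 probe sets. The probe sets split into 6 at least 4-fold lower, from -3.27 to -2.30, and 21 that ran from -0.60 to 1.05, with none between. The 6 stood at 4.62 to 6.78 on the KO array and at 7.21 to 9.21 on the HET array. The brightest Myrf probe set, by contrast, was at 11.29 in KO and 11.62 in HET cells. A median over a gene divided in this way follows the larger part, and what sets the 6 apart is not known here.

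Sox8, a relative of Sox10, was at -0.28 with 9 of 11 probe sets lower. Tmem125, a transmembrane protein of oligodendrocytes, was at -0.14. Evi2a, a small membrane protein whose gene lies inside an intron of Nf1, was the highest of the 39 genes at 0.52 (SD 1.12), with 7.59 on the KO array and 7.12 on the HET array and 6 of 8 probe sets higher. Its highest probe set measured 10.21 in KO and 7.10 in HET cells. Evi2a passed the 2-fold rule in the higher direction, at 1.13, when the floor was raised to the 75th percentile.

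**Figure D3:**
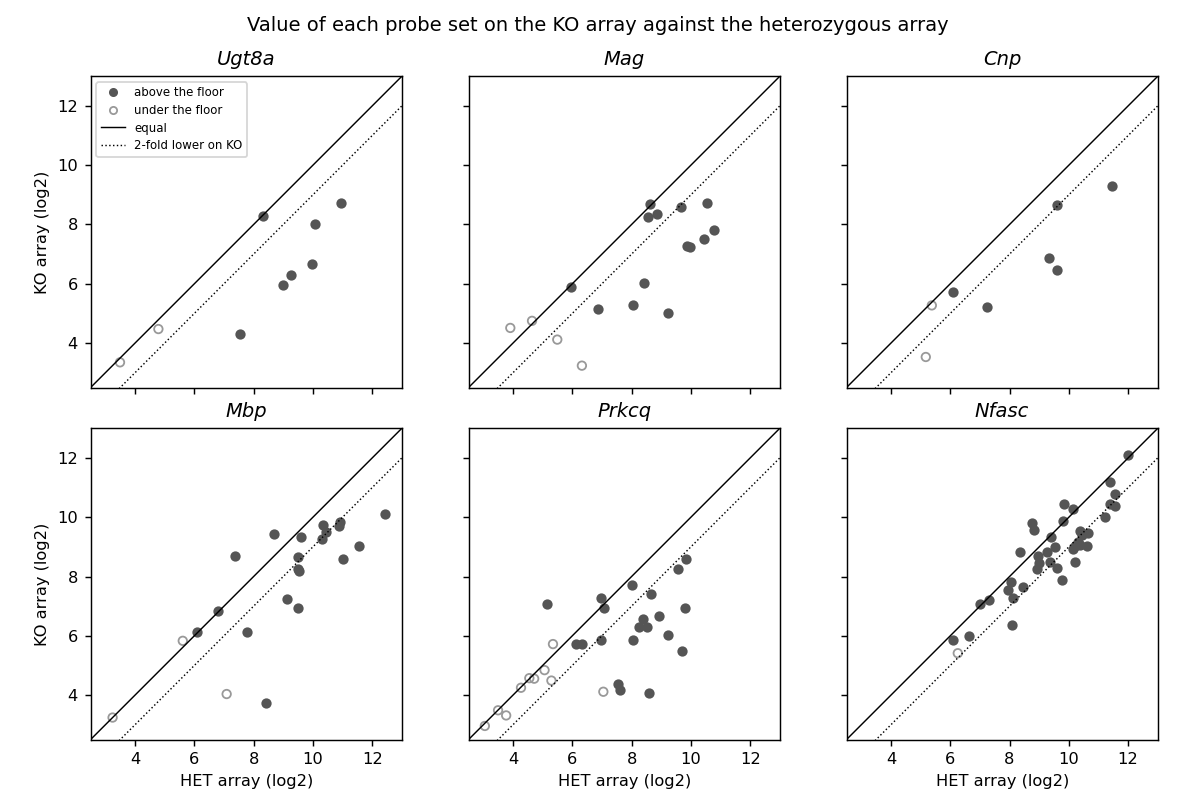
Value of each probe set on the KO array (vertical axis, log2) against the HET array (horizontal axis, log2) for Ugt8a, Mag, Cnp, Mbp, Prkcq and Nfasc. Most probe sets above the floor lie under the dotted 2-fold line in Ugt8a, Mag, Cnp, Mbp (12 of 20) and Prkcq. In Nfasc 13 of 39 do.

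The genes were also split by background knowledge of where the brain makes them. Of 19 evaluated genes made mostly by oligodendrocytes, all were below 0 and 8 were at least 2-fold lower, with a median of -0.75. Among these 8 are Gje1, for which the gene read is not settled, and Mbp, whose locus neurons and immune cells also use. Of 20 genes that other brain cells also make, 18 were below 0 and 3 (Pllp, Trf and Prkcq) were at least 2-fold lower, with a median of -0.40. With centring or the trend removed, 17 of the 19 were below 0, with Klk6 and Hapln2 above it. Of the 20 genes that other brain cells also make, Plekhb1, Qdpr and Evi2a were then above 0 and the rest below. Both medians lay below the -0.11 of all evaluated genes, and the difference between the sets was not tested.

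Sequence was read for the genes past the 2-fold rule because they shared a direction, and the promoters shown are those of the genes with a motif match. Promoter windows of 250 bases before a RefSeq gene start (GRCm38.p6) were at hand for 29 of the 40 genes and 7 of the 11. They were searched on both strands for the FoxO core GTAAACA, the pattern CTGGNAC for Myrf and the SoxE motif AACAAAG. Matches do not overlap each other in the sequences printed. In the pattern called the Myrf motif below, N stands for any base, so its matches include letters that a stricter motif would exclude. In the sequences below capitals mark the matches, read 5′ to 3′ on the strand of the gene.
Mag, chr7:30914864-30915113, minus strand, Myrf motif: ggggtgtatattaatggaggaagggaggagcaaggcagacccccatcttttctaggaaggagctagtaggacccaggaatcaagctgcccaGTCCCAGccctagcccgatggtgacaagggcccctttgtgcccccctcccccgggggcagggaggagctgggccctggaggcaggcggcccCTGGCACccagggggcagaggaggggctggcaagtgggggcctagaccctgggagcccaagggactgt
Cnp, chr11:100574689-100574938, plus strand, Myrf and SoxE motifs: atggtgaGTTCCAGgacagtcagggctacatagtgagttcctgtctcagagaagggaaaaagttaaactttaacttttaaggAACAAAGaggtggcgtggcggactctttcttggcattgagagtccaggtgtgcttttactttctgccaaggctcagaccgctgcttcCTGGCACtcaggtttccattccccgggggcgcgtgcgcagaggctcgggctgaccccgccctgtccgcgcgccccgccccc
Mobp, chr9:120149492-120149741, plus strand, SoxE motif: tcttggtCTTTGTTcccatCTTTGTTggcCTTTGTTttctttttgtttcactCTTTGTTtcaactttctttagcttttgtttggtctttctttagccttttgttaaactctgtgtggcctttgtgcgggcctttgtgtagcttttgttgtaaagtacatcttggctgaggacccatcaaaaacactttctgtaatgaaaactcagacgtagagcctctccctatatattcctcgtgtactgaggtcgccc
Prkcq, chr2:11172132-11172381, plus strand, Myrf motif: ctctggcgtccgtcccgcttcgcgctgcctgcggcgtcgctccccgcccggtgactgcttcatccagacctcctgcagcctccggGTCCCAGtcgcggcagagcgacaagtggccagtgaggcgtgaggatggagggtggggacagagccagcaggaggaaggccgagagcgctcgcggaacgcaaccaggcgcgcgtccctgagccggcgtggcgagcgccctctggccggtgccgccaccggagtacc

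With any base allowed at N, the Myrf motif was found in windows of 17 of the 29 genes, against 17.9% of 27025 genes in all. Of the 7 genes past the rule 3 held it (Mag, Cnp and Prkcq), and of the other 22 genes 14 did. By window, 19 of 47 (40.4%) held it, against 16.1% of 32851 windows of all genes; several windows of 1 gene overlap and share a match. The SoxE motif was found in 3 of 47 windows (6.38%), against 5.03% of all, and Mobp held 4 copies in a stretch rich in T. The FoxO core was found in 0 of 47 windows, against 3.17% of all. A match is a run of letters and does not show a binding site, and no match says only that these letters are not in the window.

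Other genes of the same biology were taken from lists that hold none of the 40 genes, also chosen with earlier results of these data known. Of 22 evaluated further oligodendrocyte and myelin genes, 19 were below 0, with a median of -0.24, and 2 were at least 2-fold lower. These were Bcas1, which marks newly myelinating oligodendrocytes, at 6.95 on the KO array against 8.39 on the HET array (-1.91), and Sirt2, a deacetylase abundant in myelin, at 8.95 in KO and 10.21 in HET cells (-1.37, 21 of 22 probe sets lower). The highest was Tppp, a tubulin-binding protein of oligodendrocytes, at 0.12.

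Sphingolipid genes did not share one direction. Of 17, 13 were below 0, with a median of -0.11, the same to this precision as over all genes. Elovl7, a fatty acid elongase, was at least 2-fold lower at -2.27 (6.48 on the KO array, 8.69 on the HET array), but stood at -0.66 with every probe set used. Going the other way were Cers2, the synthase of ceramides with very long chains, at 1.07 (9.31 on the KO array, 7.83 on the HET array, 9 of 10 probe sets higher) and Degs1, which makes ceramide from dihydroceramide, at 1.26 (7.48 on the KO array, 6.75 on the HET array). Cers2 was also past the rule with every probe set used, and Degs1 was not, at 0.63.

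Of 14 axonal and glial genes of the node and paranode, all were below 0, with a median of -0.32. Cadm4, the glial adhesion molecule that contacts the axon between nodes, was the one past the rule, at -1.29 (7.58 on the KO array, 8.88 on the HET array) with 8 of 8 probe sets lower. Scn8a, a sodium channel of the node, was the highest at -0.09.

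Markers of oligodendrocyte precursors were taken as well. Early oligodendrocyte precursor genes were below 0 in 6 of 6, with a median of -0.62 and middle levels of 6.89 on the KO array and 8.25 on the HET array, and 2 were at least 2-fold lower. These were Pdgfra at -2.41 and Lhfpl3 at -1.59, and Cspg5 was the highest at -0.04. Committed precursor genes were below 0 in 8 of 8, with a median of -0.72 and middle levels of 6.70 on the KO array and 7.86 on the HET array. Gpr17 at -2.10 and Enpp6 at -1.78 were the 2 past the rule, and Neu4 was the highest at -0.28. The other genes of both lists did not pass, and the part of precursor RNA in the values of the 40 genes was not tested.

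Of the genes of other cells described next, 0 passed the 2-fold rule in either direction. All 8 genes of vessels and pericytes lay below 0, their median being -0.37, with Cdh5 lowest at -0.77, while Pecam1 was at -0.05. Of 7 meningeal fibroblast genes 6 were below 0, with a median of -0.34, from Dcn at -0.70 to Slc6a13 at 0.17. Of 5 Schwann cell genes 4 were below 0, with a median of -0.43, from Gldn at -0.77 to Ncmap at 0.29; Prx and Pmp2 were not evaluated. Of 10 astrocyte genes 7 were below 0, with a median of -0.20, from Slc1a3 at -0.73 to Gfap at 0.66. Of 10 microglia genes 7 were below 0, with a median of -0.07, from Trem2 at -0.30 to Aif1 at 0.50.

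Of 11 AgRP neuron genes 4 were below 0, with a median of 0.14, KO levels between 7.36 and 12.44, and HET levels between 7.68 and 12.31. Ghsr was the lowest at -0.60 and Mc3r the highest at 0.52. Of 9 pan-neuronal genes 8 were below 0, with a median of -0.16, from Syt1 at -0.97 to Elavl4 at 0.13. The part of a different mix of cells on the 2 arrays in the myelin gene values was not tested.

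**Figure D4:**
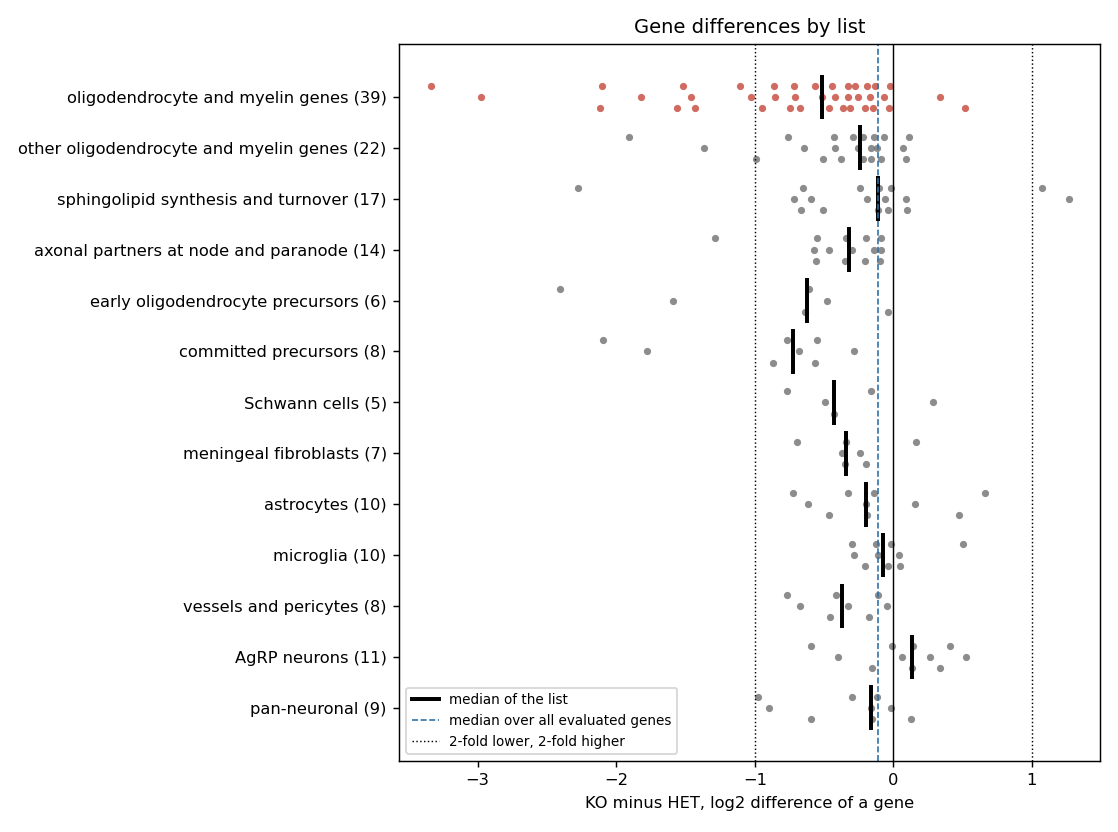
Gene differences (points, KO minus HET, log2) for the 39 evaluated oligodendrocyte and myelin genes (red) and for the 12 other lists (grey), with the number of evaluated genes in brackets and each list's median as a bar. Medians run from -0.72 for committed precursors to 0.14 for AgRP neurons, and the dashed line marks the -0.11 of all evaluated genes.

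The floor changed the size of several differences. Prkcq stood at -1.82 with the floor and -1.11 without it, Ugt8a at -2.98 and -2.20, and Gje1 at -3.33 and -2.92. Mobp, Trf, Fa2h and Mal had every probe set above the floor, so their values were the same both ways. Mbp stood at -1.11 with the floor and at -1.05 without it, where 17 of its 23 probe sets were lower, too few for the rule.

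**Figure D5:**
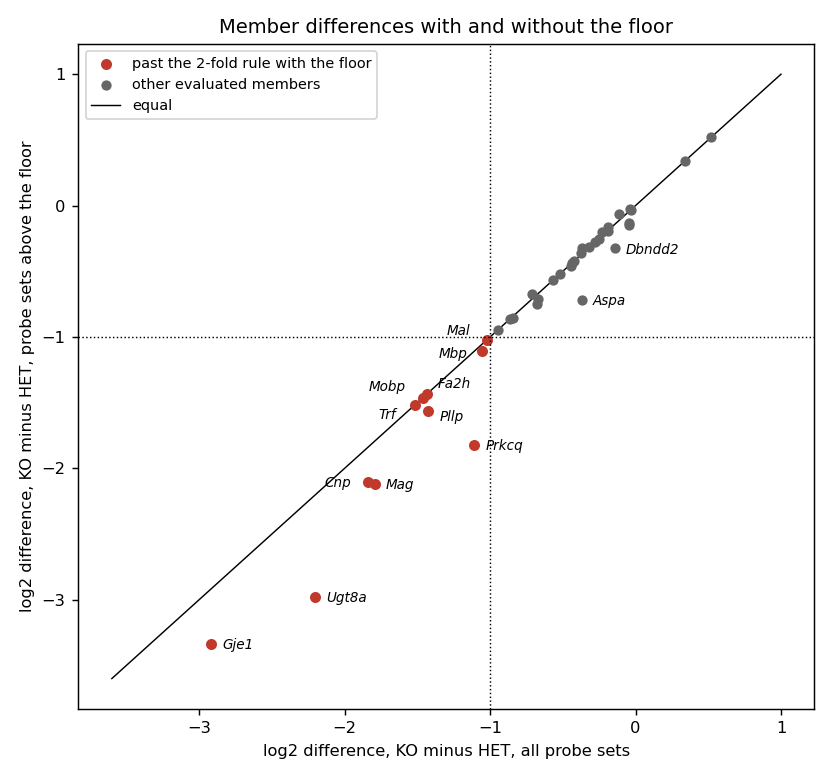
Difference of each of the 39 evaluated genes (KO minus HET, log2) from probe sets above the floor (vertical axis) against all probe sets (horizontal axis). Points on the line have equal values both ways, as for Mobp, Trf, Fa2h and Mal, and Prkcq, Ugt8a, Gje1 and Aspa are among those under it.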

How the data were processed

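RNA of 1 KO and 1 HET sort was measured on 1 exon-level array each. The authors deposited 1 value per probe set and array, on a log2 scale as judged from the values (2.55 to 14.11 on the KO array and 2.53 to 14.13 on the HET array, with medians of 5.85 on both). RMA and Partek made them, per the submitters' processing notes, with no versions; for genome build and annotation, nothing is given in the sources used here. The platform annotation names 1 gene for 318760 of the 1235936 probe sets, and these were used; it names several for 6684 and none for 910492.

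Genes were summarised as in the report, which gave 16639 evaluated genes with a median of 10 probe sets. The members, the lists, the named genes and the motifs were chosen with earlier results of these data known. All 40 members are named; from each other list the text names the highest and lowest gene and those past the 2-fold rule, besides Agrp, Npy, Foxo1 and Gpr17, and D230044M03Rik after its value was seen. Of 138 other list genes 127 were evaluated, 7 under an older symbol, which RefSeq's gene table (GRCm38.p6) gave. Alternatives were omission of the floor, a higher floor (75th percentile), means in place of medians, a minimum of 1 or of 5 probe sets, removal of the trend on level, repeated quantile normalisation, centring, probe sets with several symbols, a 1.5-fold rule and no agreement rule. The summary was tested on simulated data, made by shuffling differences among probe sets of like level and then changing some genes. The shuffle removes what probe sets of 1 gene share, and no variation between mice or arrays was simulated. It therefore checks the calculation and not the genes counted here. The number of arrays limits the precision. Python 3.11.15, numpy 2.4.6, pandas 2.3.3, statsmodels 0.14.6 and matplotlib 3.10.9 were used.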

Additional observations from a re-analysis of the deposited data

How the results depend on the processing

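Over 9 alternatives that recompute the differences, 9 to 13 genes were at least 2-fold lower and the median stayed below 0, from -0.73 with the mean over probe sets to -0.39 with the trend on level removed. With a 1.5-fold rule 17 genes were lower. With the floor raised to the 75th percentile 1 gene, Evi2a, was at least 2-fold higher. Of the 11 genes, 9 passed under every alternative that evaluated them. Mbp did not with no floor (-1.05) or with centring (-0.998), and Mal did not with the mean over probe sets (-0.93), the trend removed (-0.91) or centring (-0.91). Gained were Mog (-1.504) and Apod (-1.18) with the higher floor, and Cldn11 (-1.04), Gsn (-1.05) and Apod (-1.22) with the mean over probe sets. With the mean over probe sets Aspa and Car14, neither past the rule, stood above 0 (0.22 and 0.12). Over all genes, the count lower was 186, against 127 with centring, 815 with the 1.5-fold rule, 126 with no floor and 329 with at least 1 probe set; the count higher was 188, against 270 with centring, 545 with the 1.5-fold rule and 338 with at least 1 probe set. No paired analysis was possible because there is 1 array per genotype.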
